A study of Apis mellifera with 9 samples.

Results

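Among the 2673 long non-coding RNA (lncRNA) genes measured in the ovary of honey bee (Apis mellifera) workers, 1136 lay antisense to protein-coding genes, out of 13204 genes in the table. A lncRNA was counted as antisense when its span overlapped at least 1 protein-coding gene on the opposite strand of the same chromosome and none on its own strand. This criterion used positions and strands and no measured value. 5 lncRNAs were set aside by name, 2 of which are antisense by position. The 5 include the highest lncRNA of the table, with a mean of 1738 FPKM. Maxima and rankings below therefore hold for the antisense lncRNAs kept, and the 5 are counted among the other lncRNAs. Of the remaining lncRNAs, 1137 overlapped no coding gene, 348 overlapped a coding gene on their own strand alone and 47 overlapped coding genes on both strands. The antisense lncRNAs stood opposite 875 of the 10271 coding genes, which is 8.52%. 1055 of them faced a single coding gene and 81 faced several, up to 6, and for these the gene with the longest overlap served as the partner.

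The study has 1 group and no treatment. Each of its 3 pools held 40 ovary pairs from workers of a single colony, collected 4 days after emergence and returned to their colony in between, and no group is set against a control. The colonies numbered 5, and the sample labels do not say which gave which pool, so differences between pools may include differences between colonies. Levels are FPKM, fragments divided by exonic length in kilobases and by library size, in 1 RNA-seq library per pool made with a strand-specific kit. The circular RNA (circRNA) library of the same pool number gave back-splice junctions, the joins that mark a circle.

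An antisense lncRNA is transcribed from the DNA strand opposite a coding gene, so that the 2 transcripts can share complementary sequence where their exons meet. Depending on the locus, such RNAs are known to leave the coding gene untouched, to act through the passage of the polymerase across it, or to bind its RNA. Arrangements are named by the ends that meet: head to head at the 5′ ends, tail to tail at the 3′ ends, and nested when one gene lies within the span of the other, most often in an intron.

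The libraries held 31930244, 27684048 and 26602582 fragments in pools 1 to 3, recovered from the FPKM values, and 3 fragments on an exonic length of 1 kb correspond to 0.094, 0.108 and 0.113 FPKM. The markers showed germ cells along with other tissue. The germ cell genes vas, nanos and the higher of 2 features named aub averaged 23.4, 9.24 and 30.1 FPKM. The 3 muscle markers summed to 767, 488.7 and 407.8 FPKM and the 4 fat body markers to 687.9, 605.9 and 463.8 FPKM in pools 1 to 3. The 2 neuron markers summed to between 33.3 and 40.7 FPKM, and the 3 royal jelly genes that mark head glands to between 1.05 and 2.52 FPKM, with Mrjp2 listed at 0 in pools 1 and 3. In whole ovaries, fewer cells of a type and less RNA per cell cannot be told apart. The labels do not say how fragments were assigned to strands, so where exons of a lncRNA and a coding gene face each other the split between them cannot be told. Positions below are those of the deposited table, on linkage groups, without a named build.

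Most of these lncRNAs were scarce. Their mean level had a median of 0.809 FPKM, with quartiles at 0.245 and 2.27 FPKM, and the means spanned 0.00517 to 106 FPKM. 393 of the 1136 reached FPKM 1 in all 3 pools, a share of 34.6% against 70.5% of all genes, 36.4% of all lncRNAs and 37.8% of the other lncRNAs. 537 (47.3%) stayed below 1 in all 3 pools, against 20.4% of all genes and 44.2% of the other lncRNAs. 124 were at 0 in at least 1 pool, against 876 of the 13204 genes and 185 of the 1537 other lncRNAs. 122 had a mean of 5 or more, against 7472 of all genes and 195 of the other lncRNAs. 706 had at least 10 fragments in every library, against 10918 of all genes and 1009 of the other lncRNAs. No gene in the table was at 0 in all 3 pools, so lncRNAs without any fragment are outside these counts.

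Antisense lncRNAs were slightly below the other lncRNAs taken as a whole and close to those that overlap no coding gene. The median log2(FPKM + 1) was 0.83 ± 0.05 for antisense lncRNAs and 0.93 ± 0.06 for all other lncRNAs (SD, n = 3), a difference of -0.10 ± 0.02 that had the same sign in 3 of 3 pools. Against the lncRNAs that overlapped no coding gene, at 0.81 ± 0.06, the difference was 0.03 ± 0.01. The same-strand lncRNAs had a median of 1.41 FPKM. Both differences, tested by exact permutation of signs over the pools (two-sided), gave p = 0.25, also after Benjamini-Hochberg adjustment over 5 comparisons, and 0.25 is the smallest p that 3 pools allow.

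**Figure D1:**
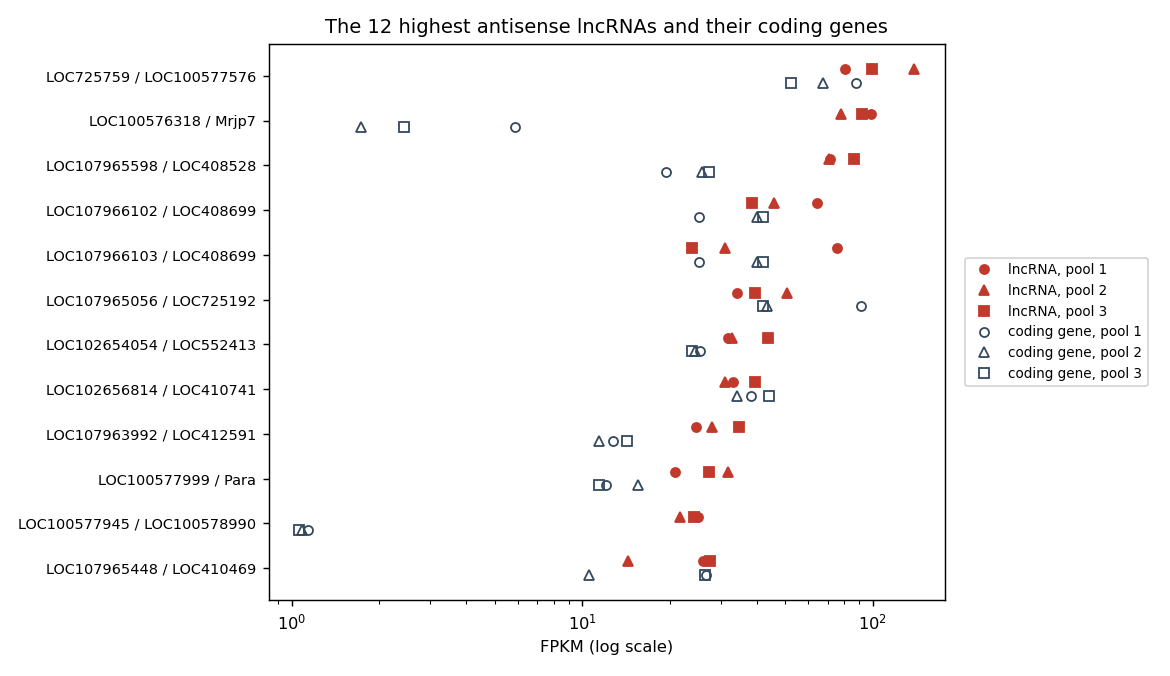
FPKM (log scale) in pools 1 to 3 of the 12 antisense lncRNAs with the highest mean, as filled red symbols, and of the coding gene each overlaps, as open dark symbols below them. LOC100576318 and LOC100577945 stand far to the right of their coding genes, while LOC102656814 and LOC107965448 lie close to theirs.

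The highest of the antisense lncRNAs kept was LOC725759 (linkage group 3, 11655217 to 11656345, plus strand), with 80.5, 139 and 99.3 FPKM in pools 1 to 3. Its tail-to-tail partner, the chondroitin proteoglycan-2-like gene LOC100577576, had 87.7, 67.4 and 52.3 FPKM. The lncRNA was higher in pools 2 and 3 and the coding gene in pool 1, so their order changed with the pool.

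The second was LOC100576318 (linkage group 11, 2613032 to 2614765, minus strand), with 98.6, 77.9 and 92.1 FPKM. It meets the 3′ end of Mrjp7, a gene of the major royal jelly proteins that nurse workers secrete as food, which had 5.86, 1.74 and 2.44 FPKM. The lncRNA was 26.8-fold higher by the means and the ranges were far apart. Royal jelly genes are related in sequence, and whether reads were split among them was not tested, so the level of Mrjp7 is uncertain.

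LOC107965598 (linkage group 15, 6909902 to 6910263, minus strand) lies inside the gene for a colorectal mutant cancer protein-like product, LOC408528. It had 71.6, 70.7 and 86.2 FPKM, and the coding gene 19.4, 25.8 and 27.4 FPKM. The lncRNA was higher in all 3 pools without overlap.

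LOC107966102 and LOC107966103 stand at either end of a single coding gene on linkage group 2, LOC408699, a phosphodiesterase 8A-like enzyme that breaks down the second messenger cAMP. LOC107966102 meets its 3′ end and had 64.5, 46.0 and 38.3 FPKM. LOC107966103 meets its 5′ end and had 75.4, 31.0 and 23.9 FPKM. Both were highest in pool 1, where the coding gene was lowest, at 25.3 FPKM against 40.0 and 42.0 FPKM in pools 2 and 3. With 3 pools this ordering is a description.

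Of the next lncRNAs, LOC107965056 lies inside LOC725192, which is uncharacterized, and averaged 41.4 ± 8.49 FPKM against 58.9 FPKM for the coding gene. LOC102654054 meets the 3′ end of LOC552413, a homolog of salvador, which in Drosophila is a scaffold of the growth-restraining Hippo pathway. It had 31.7, 32.7 and 43.7 FPKM, above 25.5, 24.4 and 24.0 FPKM for the coding gene in every pool. LOC102656814 averaged 34.5 ± 4.41 FPKM and its tail-to-tail partner LOC410741, a proton-coupled amino acid transporter, 38.8 FPKM. The lncRNA was below the coding gene in every pool, at 33, 31 and 39.4 FPKM against 38.2, 34.1 and 43.9 FPKM.

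LOC107963992 lies inside LOC412591, a neuropeptide receptor of the calcitonin gene-related peptide type, and averaged 29.1 ± 5.02 FPKM, against 12.8 FPKM. LOC100577999 lies inside Para, the voltage-gated sodium channel of neurons, and averaged 26.7 ± 5.44 FPKM, against 13.0 FPKM. Both lncRNAs were above their coding gene in every pool. LOC107965448 meets the 3′ end of LOC410469, the beta subunit of the receptor that docks ribosomes at the endoplasmic reticulum. It had 26.2, 14.3 and 27.6 FPKM, and the coding gene 26.8, 10.6 and 26.5 FPKM. Both members of this pair were lowest in pool 2.

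Set beside their coding genes, antisense lncRNAs were usually the lower member. The median over pairs of the lncRNA level minus the coding level, in log2(FPKM + 1), was -2.45 ± 0.05 (SD, n = 3; exact sign-flip p = 0.25, the smallest possible), with the same sign in 3 of 3 pools. The coding gene was higher in all 3 pools in 892 of 1136 pairs, or 78.5%. The lncRNA was higher in all 3 pools in 135 pairs, or 11.9%, against 4.89% of the 348 lncRNAs that overlap a coding gene on their own strand. In the other 109 pairs the order differed between pools. Both members reached FPKM 1 in all 3 pools in 331 pairs, the lncRNA alone in 62, the coding gene alone in 619 and neither in 124.

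Across the 1136 pairs the levels of lncRNA and coding gene had no common rank order, with Spearman's rho of -0.007 on the means and 0.034, -0.013 and -0.027 within pools 1 to 3. These pairs share a library, and some share a coding gene, so rho is given as a description. Within the 108 head-to-head pairs rho was 0.298 and within the 125 tail-to-tail pairs 0.263, against -0.053 in the 870 pairs with the lncRNA inside the coding span and -0.046 in the 33 pairs with the coding gene inside the lncRNA.

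**Figure D2:**
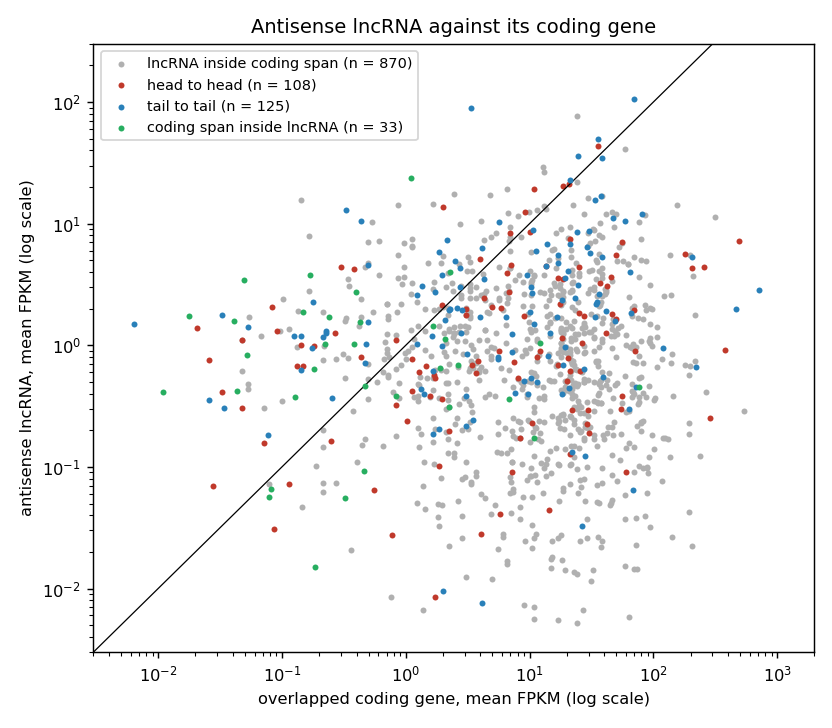
Mean FPKM over 3 pools of each antisense lncRNA (vertical axis, log scale) against its coding gene (horizontal axis, log scale), coloured by arrangement, with the line of equal levels. Most of the 1136 points lie below the line, and the cloud has no slope over the whole range (rho -0.007).

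The lncRNAs that stood furthest above their coding gene, apart from LOC100576318 and LOC100577945 given elsewhere, faced genes with a mean below FPKM 1. LOC107965049 (linkage group 1, 22165716 to 22166076, plus strand) had 16, 18.4 and 12.5 FPKM inside LOC413574, whose product is named as a 26S proteasome regulatory subunit and which had 0.267, 0.077 and 0.080 FPKM. That is a 111-fold difference of means. LOC107963988 had 5.81, 10.5 and 7.29 FPKM inside LOC726148, an adhesion gene of the kin of IRRE family, at 0.206, 0.159 and 0.130 FPKM, a 47.8-fold difference. In both pairs every pool of the lncRNA was above every pool of the coding gene. Few fragments were recovered for the coding genes, so both folds are imprecise. In pools 1 to 3 they were 28, 7 and 7 for LOC413574 and 21, 14 and 11 for LOC726148.

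LOC107965335 averaged 14.2 ± 0.98 FPKM inside the gene of synapsin, a protein of synaptic vesicles, which averaged 0.872 FPKM. LOC102653929 averaged 10.3 ± 1.51 FPKM inside LOC411050, a kainate-type glutamate receptor, at 0.529 FPKM. LOC100578001 meets the 3′ end of LOC725204, a tyrosine aminotransferase that breaks down tyrosine, and averaged 10.6 ± 4.44 FPKM against 0.435 FPKM. LOC102654051 averaged 13.0 ± 1.47 FPKM and its tail-to-tail partner LOC100578957 0.329 FPKM. Few fragments were recovered for LOC725204, at 15, 27 and 18, and for LOC100578957, at 55, 17 and 25 in pools 1 to 3. In all, 16 lncRNAs of FPKM 1 or more were at least 10 times their coding gene in every pool, or 1.41% of pairs. The same share for same-strand lncRNAs is not given, so this count is a description.

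The arrangement of the pair went with the level. 870 pairs (76.6%) had the lncRNA wholly inside the coding span, where the coding genes were long, with a median span of 63828 bases. 108 pairs met head to head, 125 tail to tail, and in 33 the coding gene lay inside the lncRNA. The median log2(FPKM + 1) of the lncRNAs was 0.74 ± 0.03 inside a coding span, 0.96 ± 0.04 head to head, 1.44 ± 0.14 tail to tail and 0.84 ± 0.08 around a coding gene (SD, n = 3 pools). Head to head minus tail to tail came to -0.48 ± 0.11, negative in 3 of 3 pools (exact sign-flip p = 0.25, the smallest possible). 40.7% of head-to-head, 51.2% of tail-to-tail and 31.6% of nested lncRNAs reached FPKM 1 in all pools.

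Along the coding gene the lncRNAs covered the middle more often than the ends. An average position was covered in 14.3% of pairs in the first 20% of the coding span, 17.7% in the middle and 14.6% in the last 20%. In 76.6% of pairs the lncRNA lies wholly inside the coding span, and a span that must fit inside another reaches its ends less often. Lower cover at the ends is thus partly built in, and a preference for the middle was not tested. The overlap had a median of 2578 bases and covered the whole lncRNA in at least 3 of 4 pairs, but a median of 6.58% of the coding span. Spans include introns. Recovered exonic lengths, which are lower limits, force exons to face each other in 5 pairs, and the other pairs can share exonic bases or none. The clearest was LOC107965486 (linkage group 14, 8530773 to 8532803, minus strand), where at least 52.6% of its exonic length lies opposite exons of the uncharacterized gene LOC100576128. It had 4.9, 4.28 and 5.14 FPKM, against 0.478, 0.380 and 0.633 FPKM for the coding gene.

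**Figure D3:**
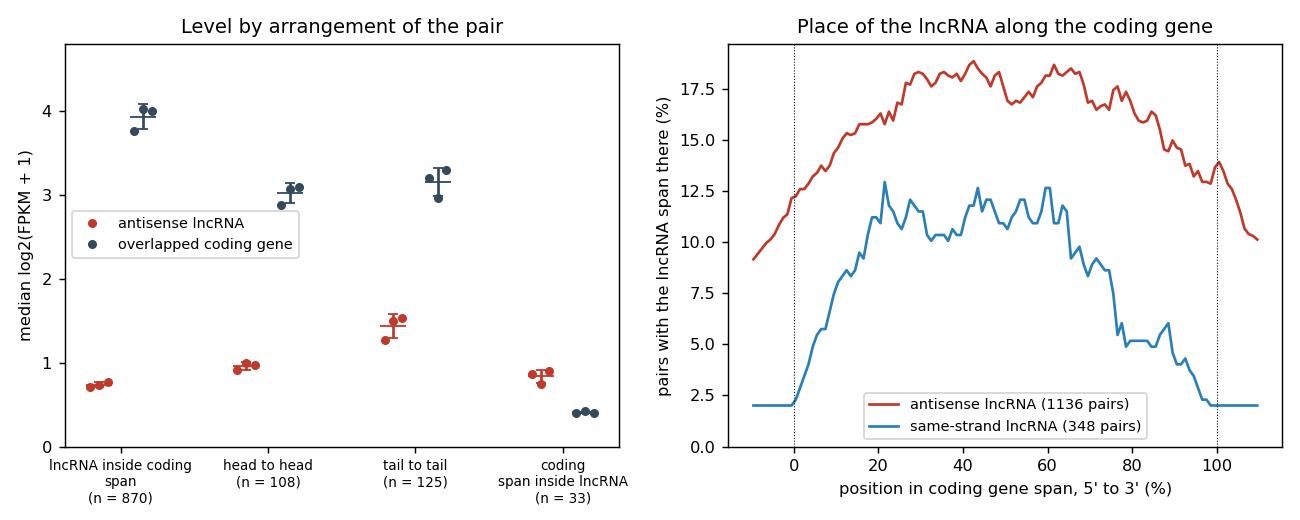
Left, median log2(FPKM + 1) of antisense lncRNAs (red) and of the coding genes they overlap (dark) for each arrangement, with 1 point per pool, the mean and the SD. Right, share of pairs (percent) whose lncRNA span covers each position of the coding span, from its 5′ end at 0 to its 3′ end at 100 (percent of span), for 1136 antisense and 348 same-strand pairs: the antisense curve is broad and reaches past both ends, the same-strand curve falls to 2.01% of pairs past both ends.

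The coding genes with an antisense lncRNA were long. Their median span was 23495 bases, against 3612 for the other coding genes, and the share with an antisense lncRNA was 36.2% of coding genes over 30000 bases and 1.92% of those of up to 2000 bases. With no regard to span, the overlapped genes had a median log2(FPKM + 1) of 3.49 ± 0.04 and the other coding genes 4.01 ± 0.07 (SD, n = 3), a difference of -0.52 ± 0.09. This order turned with span. Among coding genes over 30000 bases, 397 overlapped genes had a median of 3.77 ± 0.07 and 699 others 2.91 ± 0.08, a difference of 0.85 ± 0.01. Among those of up to 30000 bases the difference was -0.93 ± 0.04. Each of the 3 differences had its sign in 3 of 3 pools and p = 0.25 (exact sign-flip permutation test), and the split at 30000 bases was chosen after the data were seen.

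By the words in their product names, the classes differed in how often an antisense lncRNA faced them. An antisense lncRNA faced 24.4% of the 90 adhesion and guidance genes, 23.2% of the 414 receptors and ligands and 13.0% of the 368 transporters and channels, against 8.52% of all coding genes. It faced 9.6% of kinases, phosphatases and their regulators, 7.86% of transcription and chromatin genes, 5.33% of ubiquitin and proteasome genes, 4.50% of RNA-binding genes, 3.63% of mitochondrial and metabolic genes, 2.16% of cell cycle and DNA repair genes and 1.56% of ribosome and translation genes. Small GTPases, at 9.09%, cytoskeleton genes, at 9.84%, and uncharacterized genes, at 10.7%, lay close to the whole. Span moves with these shares: the median was 27831 bases for adhesion genes and 1839 for ribosome and translation genes. Its part in them was not tested. Word matching also misplaces some genes: disintegrin proteases fell under adhesion and the ribosome-docking receptor subunit under receptors.

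In the classes closest to the working of an ovary, individual lncRNAs were of moderate level. LOC107964946 lies inside LOC409007, the RNA-binding protein hnRNP K, and had 5.75, 10.4 and 10.8 FPKM against 28.1, 34.3 and 34.5 FPKM. LOC107964318 meets the 3′ end of the RNA helicase gene LOC408794 (Ddx1) and averaged 6.47 ± 0.502 FPKM against 29.3 FPKM. The highest level in a pair with a cell cycle gene was that of LOC102656901, opposite the cyclin-dependent kinase-like 1 gene LOC411507, with 7.05, 1.92 and 4.73 FPKM against 0.575, 0.417 and 0.493 FPKM. LOC102654969 meets the 3′ end of LOC552186, the homolog of Cdc20 that activates the anaphase-promoting complex, and averaged 2.37 ± 0.283 FPKM against 18.3 FPKM.

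Facing ribosome and translation genes, LOC107965003 averaged 2.82 ± 0.357 FPKM beside ribosomal protein L35a (LOC409599) at 718 FPKM. LOC107965000, inside the translation initiation factor 5 gene LOC408979, averaged 1.97 ± 1.09 FPKM against 97.5 FPKM, and a newer annotation lists it as protein-coding. Among signalling and shape genes, LOC107964562 meets the 5′ end of LOC411970, a G kinase-anchoring protein, with 22.0, 18.4 and 22.6 FPKM against 17.1, 24.4 and 20.9 FPKM, which overlap. LOC107964031 averaged 11.9 ± 2.39 FPKM inside LOC408693, an epidermal growth factor receptor kinase substrate, at 41.1 FPKM. LOC102653743 averaged 14.4 ± 3.31 FPKM inside LOC410091, a ras exchange factor, which activates small GTPases, at 156 FPKM.

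LOC102654020 averaged 7.76 ± 2.81 FPKM inside LOC409836, a rho GTPase-activating protein, at 8.54 FPKM, and both were lowest in pool 1. Inside the unconventional myosin-XV gene LOC408444, at 52.3 FPKM, LOC107965509 averaged 6.39 ± 1.19 FPKM. LOC100577721 averaged 4.57 ± 0.644 FPKM at the 5′ end of the myosin-G heavy chain-like gene LOC100577678, at 7.08 FPKM. Facing transcription factors, LOC102653875 averaged 6.02 ± 0.864 FPKM inside the GLI1-like gene LOC100578226, at 15.2 FPKM, and LOC107964877 averaged 7.27 ± 1.03 FPKM at the 3′ end of the zinc finger gene LOC100577756, at 2.17 FPKM. GLI proteins carry the Hedgehog signal to the nucleus.

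LOC102654638 averaged 17.0 ± 4.99 FPKM inside LOC408766, which makes sphingomyelin or a related lipid from ceramide, at 38.3 FPKM. LOC107965039 averaged 20.5 ± 1.98 FPKM head to head with the uncharacterized LOC107965037, at 18.6 FPKM. LOC102653690 averaged 7.54 ± 0.981 FPKM at the 5′ end of the deubiquitinase gene LOC411920, at 21.1 FPKM. LOC102654625 averaged 8.44 ± 1.14 FPKM inside the disintegrin protease gene LOC551663, at 5.31 FPKM, and LOC102653866 averaged 8.07 ± 1.58 FPKM inside another of that kind, LOC409468, at 36.4 FPKM. LOC102653866 was below its gene in every pool and LOC102654625 above.

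Odorant receptors, membrane proteins best known from olfactory neurons, were as a whole faced more often than any of the classes above. Of 104 odorant receptor genes 42 (40.4%) had an antisense lncRNA, against 17.7% of 311 other receptors and ligands. Most of these pairs came from a single cluster on linkage group 2, described below, with 31 of 47. The share outside that cluster was not computed. The median span was 2436 bases for odorant receptor genes and 10049 for the other receptors and ligands. The part of span in these shares was not tested. Odorant receptors were picked out after the values were seen and are described without a test. The 20 antisense lncRNAs had a median of 1.01, 1.34 and 0.977 FPKM in pools 1 to 3, and the overlapped receptors 0.094, 0.085 and 0.092 FPKM. 9 of the lncRNAs reached FPKM 1 in all 3 pools (45%, against 34.6% of all antisense lncRNAs), and 1 of the 42 receptors did. The lncRNA was higher in all 3 pools in 36 of 47 pairs. Receptor genes come in similar copies, so their own values are uncertain.

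**Figure D4:**
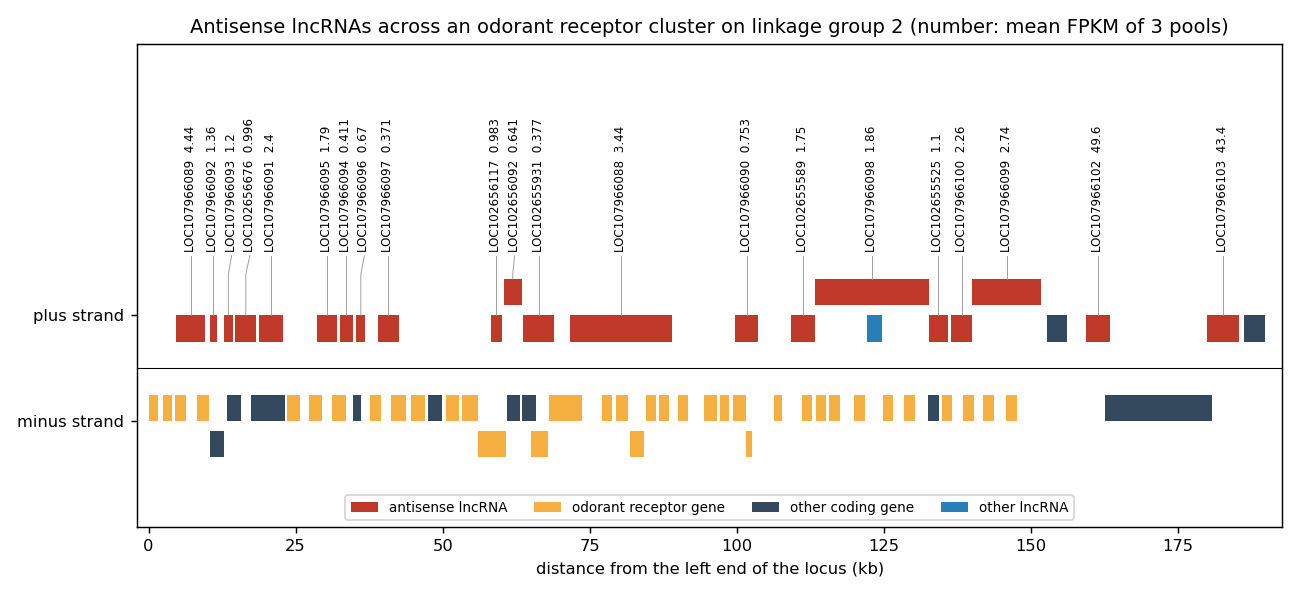
Map of 190 kb of linkage group 2 to scale, with distance from its left end in kb, the plus strand above the minus strand, and each antisense lncRNA labelled with its mean FPKM over 3 pools. All 36 odorant receptor genes lie on the minus strand. All 21 antisense lncRNAs lie on the plus strand, which follows from their definition, as the coding genes they overlap are on the minus strand. 14 of the 21 face an odorant receptor gene. The 2 lncRNAs at the right, on either side of LOC408699, stand at 49.6 and 43.4 FPKM while the other 19 lie between 0.371 and 4.44 FPKM.

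14 of these 20 lncRNAs stood in a single cluster on linkage group 2, mapped here from 9570401 to 9760190. The receptor genes end at 9718064, and the rest of the mapped region holds other coding genes. Within it 36 receptor genes run along the minus strand and 21 antisense lncRNAs along the plus strand. Besides the 14, these lncRNAs face only coding genes not named as odorant receptors, among them LOC408699, which LOC107966102 and LOC107966103 face. LOC107966088 crosses 6 receptor genes, among them Or25, Or26, Or27 and Or30, and had 2.50, 4.02 and 3.80 FPKM. The highest of the 6, Or27, averaged 0.793 ± 0.161 FPKM, so the lncRNA was above each receptor by the means. LOC107966098 crosses 5 receptor genes and had 1.66, 1.83 and 2.10 FPKM, while the highest of them, Or10, averaged 0.165 ± 0.077 FPKM. LOC107966089 faces Or50 and Or51 and had 5.89, 3.64 and 3.79 FPKM, against 0.127 and 0.301 FPKM on average for the receptors. LOC102656847 on linkage group 9 was the highest lncRNA opposite an odorant receptor, with 15.1, 11.8 and 13.9 FPKM. The lowest, LOC102653660 on linkage group 12, averaged 0.057 ± 0.053 FPKM.

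Some coding genes carried a row of antisense lncRNAs. 671 had 1, 127 had 2 and the others had 3 to 10. LOC410649, the homolog of the tyrosine kinase Btk29A, which in Drosophila is needed for the ring canals that join germ cells in the ovary, carried 10 over a span of 155206 bases. The gene had 11.7, 21.7 and 20.6 FPKM. Its lncRNAs averaged between 0.803 and 2.13 FPKM, with LOC102656015 the highest at 1.44, 2.51 and 2.43 FPKM, which like the gene was lowest in pool 1. LOC102655227 had 2.12, 0.647 and 1.39 FPKM and was highest in that pool, so the row did not share a single order of pools.

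LOC410140, a subunit of the receptor for the inhibitory transmitter GABA, carried 8 and had 2.02, 2.25 and 2.37 FPKM. Its highest lncRNA, LOC100578053, had 3.45, 4.30 and 4.12 FPKM, above the gene in every pool. The others averaged between 0.129 and 2.04 FPKM, and LOC107964747 was at 0 in pool 1. LOC408616, the homolog of TEF-1, a transcription factor whose Drosophila relative acts at the end of the Hippo pathway, carried 7 and had 15.9, 20.3 and 19.3 FPKM. Its lncRNAs averaged between 0.272 and 2.49 FPKM, and the highest, LOC102654358, had 1.97, 2.77 and 2.74 FPKM. The genes of the embryonic patterning factor Sog, of a neuropeptide Y receptor-like protein and of the uncharacterized LOC100577017 also carried 7 each.

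The 4 longest overlaps had lncRNAs of unlike levels. LOC102654450 encloses LOC412926, a dipeptidase gene, over 155894 bases and averaged 0.310 ± 0.020 FPKM against 2.24 FPKM. LOC102654831 overlaps the cell adhesion gene connectin (LOC724269) over 138121 bases and averaged 1.95 ± 0.243 FPKM against 2.22 FPKM. LOC102654051, described above at 13.0 FPKM, overlaps its gene over 125677 bases. LOC100576868 overlaps the Sox-6 transcription factor gene LOC408884 over 122800 bases and averaged 0.595 ± 0.248 FPKM against 3.69 FPKM. The reference annotation of a newer assembly places LOC100576868 apart from Sox-6.

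Between pools, 20 of the 122 antisense lncRNAs with a mean of 5 or more differed at least 2-fold from lowest to highest pool. That is 16.4%, against 11% of all genes at that level, 20.5% of all lncRNAs and 23.1% of the other lncRNAs. 6 were highest in pool 1 (30%), 7 in pool 2 (35%) and 7 in pool 3 (35%), against 60.1%, 20.4% and 19.5% of all genes that differed as much. Without pool 1 the count was 6, without pool 2 it was 10 and without pool 3 it was 16. A ratio over 2 pools cannot exceed that over 3, so a fall in the count is partly built in. No test was made of these folds, as a pool has a single library. The values nearest the limit were LOC102653822 at 2.003-fold inside it and LOC100578001 at 1.96-fold outside it. The muscle and fat body marker sums given above were highest in pool 1, the fat body sum through Hex70a at 200, 80 and 70.1 FPKM, while Tsf1 and Vg were highest in pool 2. The 4 germ cell features summed to 49.2, 69.0 and 72.1 FPKM and were lowest in pool 1. The part of these tissues in the pool differences was not tested.

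The widest was LOC102656472 (linkage group 13, 5988107 to 5989293, minus strand), with 18.6, 1.05 and 5.48 FPKM, from at least 651, 32 and 160 fragments. Its coding gene, LOC413596, had 38.3, 25.9 and 25 FPKM. LOC107965091 had 1.74, 3.71 and 9.75 FPKM inside LOC410155, a setd3-like methyltransferase gene, at 32.0, 36.8 and 34.2 FPKM. LOC102655223 had 2.32, 6.15 and 7.61 FPKM inside LOC409847, named as 15-hydroxyprostaglandin dehydrogenase, at 23.8, 22.8 and 18.7 FPKM.

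LOC107964144 had 6.54, 18.7 and 10.04 FPKM inside LOC413812, a formin-binding protein gene, at 68.8, 101 and 86.1 FPKM, and both were highest in pool 2. LOC107964548 had 4.27, 11.8 and 10.6 FPKM inside the dyrk2-like kinase gene LOC412917, at 26.8, 37.7 and 34.1 FPKM, again with the same order. LOC107966103, given above, ran the other way from its coding gene. The coding gene next to it on the same strand, LOC102655100, had 88.5, 31.6 and 34.2 FPKM and was likewise highest in pool 1. That neighbour was looked up after the values were seen.

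Of the 20, 19 had a coding gene with a mean of 5 or more, and 7 of these pairs had their highest level in the same pool. 2 of the 19 coding genes differed 2-fold, a share close to the 11% of all genes at that level, and neither had its highest pool in common with its lncRNA. These were LOC409733, the homolog of the transcription factor Myb, with 8.57, 23.2 and 17.0 FPKM against 12.05, 5.46 and 7.67 FPKM for LOC100577336, and LOC410035 (Sog) with 53.2, 110 and 74.8 FPKM against 4.54, 6.16 and 11.7 FPKM for LOC107964488. Both are named here because the count is small. Of 93 pairs with both means at 5 or more, 30 (32.3%) had their highest level in the same pool. In these pairs the lncRNA was highest in pools 1 to 3 in 24, 24 and 45 cases and the coding gene in 22, 47 and 24. With 3 pools some pairs share a highest pool from such splits alone. A link within pairs was not tested for this count or for the 7 of 19.

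**Figure D5:**
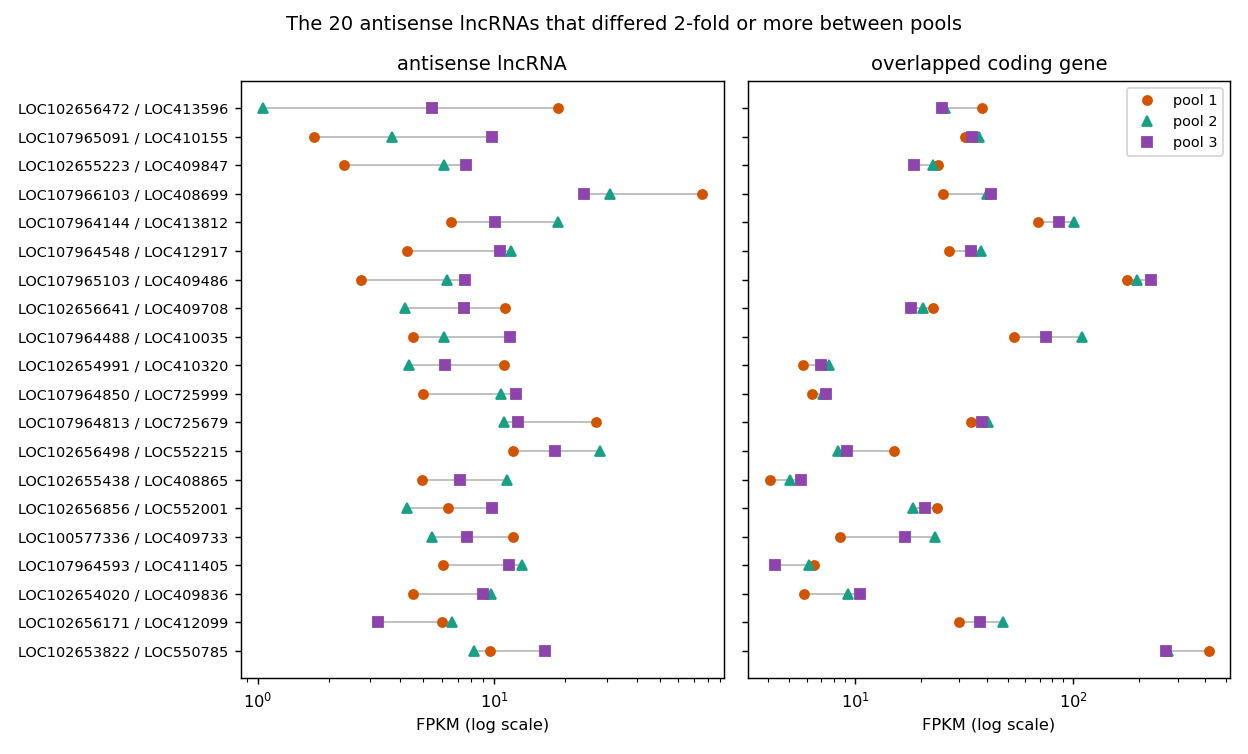
FPKM (log scale) in pools 1 to 3 of the 20 antisense lncRNAs that differed at least 2-fold between pools (left) and of the coding genes they overlap (right), ordered by the ratio of highest to lowest pool of the lncRNA. LOC102656472 at the top spans 1.05 to 18.6 FPKM, and all but 2 of the coding genes stay within a 2-fold range.

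Circular RNAs came from few antisense lncRNAs. 65 had at least 1 back-splice junction in any of the 3 circRNA libraries, a share of 5.72%, against 17.5% of all genes, 6.17% of all lncRNAs and 6.51% of the other lncRNAs. They held 139 of 11794 junctions, 137 of them on the strand of the lncRNA. 22 antisense lncRNAs had a junction found in all 3 libraries. The share of all genes at that stricter setting is not given, so this count is a description. Levels are SRPBM, back-spliced reads divided by mapped reads. The lncRNAs with a junction had a median of 1.32 FPKM and a median recovered exonic length of 2821 bases, against 0.767 FPKM and 1254 bases without one. The coding genes overlapped by antisense lncRNAs had a junction in 59.9% of cases and the other coding genes in 17.3%, and among spans over 30000 bases these shares were 91.4% and 82.0%.

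3 lncRNAs held 75.3%, 75.5% and 70.1% of the summed SRPBM of all antisense lncRNAs in circRNA libraries 1 to 3. LOC102654051 (linkage group 13, 4377054 to 4507062, plus strand) summed to 29456, 37244 and 29350 SRPBM over 5 junctions in the 3 libraries. One junction of 636 bases gave 27427, 33542 and 27627 SRPBM of that. LOC100577945 (linkage group 14, 1352267 to 1756438, plus strand) had 17 junctions, more than any other antisense lncRNA, and summed to 29380, 24870 and 22895 SRPBM. It had 25.1, 21.7 and 24.4 FPKM in RNA-seq, 21.7-fold above LOC100578990, the longest of 3 coding genes on its other strand, which averaged 1.096 ± 0.038 FPKM. The other coding genes there, LOC100578294 and LOC410477, averaged 1.13 and 5.64 FPKM. Its junctions from 1723863 to 1733042 and from 1732763 to 1754400 lie on the opposite strand and are included in the sum.

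LOC102653863 (linkage group 6, 4835978 to 4887260, minus strand) lies inside LOC725800, a homolog of the matrix protein fibrillin-2, and summed to 22637, 19901 and 22613 SRPBM over 12 junctions. Its RNA-seq level was low, at 2.61, 1.65 and 2.24 FPKM. Next came LOC100578436, opposite the zeta-sarcoglycan gene LOC551772, with 3701 ± 764 SRPBM, and LOC102654030, inside the Nkx-2.4-like homeobox gene LOC411104, with 2000.3 ± 940 SRPBM (SD, n = 3). The 3 leading lncRNAs did not overlap these 2 in any library.

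11 antisense lncRNAs contained 15 annotated miRNA genes, 9 of them on the strand of the lncRNA. LOC102655676 contained both Mir275 and Mir305 on its strand and had 8.71, 5.89 and 5.92 FPKM. LOC107964813 contained Mir980 and had 27.01, 10.97 and 12.6 FPKM. It meets the 3′ end of LOC725679, the homolog of Sex-lethal, an RNA-binding protein that in Drosophila directs sex and early germ cell development, which had 33.8, 40.4 and 38.1 FPKM. The lncRNA was highest and the coding gene lowest in pool 1.

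Not all of these genes persist in a newer annotation. 650 of the 1136 (57.2%) are still lncRNAs there, 9 are protein-coding and 477 (42.0%) have no entry under their symbol. Of the lncRNAs that overlap no coding gene, 44.6% are still lncRNAs and 53.0% have no entry. The median log2(FPKM + 1) was 1.09 ± 0.08 for antisense lncRNAs that remained lncRNAs and 0.52 ± 0.01 for those without an entry (SD, n = 3). Some without an entry were high, among them LOC725759 and LOC100576318, which lead the ranking by mean, and LOC107965049. Of 639 pairs with both members listed, 606 (94.8%) still overlapped by position and 33 lay apart, among them LOC107966102, LOC100577721 and LOC100576868 with their coding genes. Strands were not compared in the newer annotation, so whether the 606 are still antisense was not tested.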

How the data were processed

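The 3 pools of worker ovaries gave an RNA-seq, a circRNA and a small RNA library each, and the small RNA tables were not used here. The authors deposited RNA-seq levels as FPKM per gene with its biotype, position and strand, and circRNA levels as SRPBM, a normalised signal per back-splice junction. The submitters' processing notes name Bowtie, Bowtie2 2.0.6, TopHat2 2.0.9 and HTSeq 0.6.1. The genome build and the strand setting of the counting are not given in the sources used here. The miRNA genes inside lncRNAs are RNA-seq table entries.

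Overlaps were computed from the deposited positions with a minimum of 1 base (Python 3.11.15, pandas 2.3.3, scipy 1.17.1). Classes were compared within each library as differences of median log2(FPKM + 1) with no filter on level, and tested by exact permutation of signs over the 3 pools (sign-flip test, two-sided), adjusted by the Benjamini-Hochberg method over 5 comparisons. Since each pool is 1 library, the SD over pools cannot tell technical differences from those of the bees. Library totals were recovered from the steps of the FPKM values, which gave whole fragments for 13203 of 13204 genes (tolerance 1e-06). Exonic lengths and fragments of a gene are lower limits, and limits of detection cover counting error only. The scripts were tested on simulated data.

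Named lncRNAs are the 12 with the highest mean, the 8 furthest above their coding gene (log2 scale), the 6 with the largest ratio between pools at a mean of 5 or more, the 4 with the longest overlap, the 2 highest of each product-name class at a mean of 1 or more, the 5 with the highest SRPBM, and those of the 3 coding genes that carry most, with ties broken by the table's order. Others named are examples of a count or were chosen after their values were seen. The members and lists were chosen with earlier results of these data known. Newer gene entries are from RefSeq's Amel_HAv3.1 annotation, used for names and neighbours alone. Alternatives were a pseudocount of 0.1, a mean FPKM above 0.1, an overlap of 100 bases, other thresholds, lncRNAs with 1 coding gene, and leaving out each pool.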

Additional observations from a re-analysis of the deposited data

How the results depend on the processing

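Every comparison of levels kept its sign with a pseudocount of 0.1, with a filter at mean FPKM 0.1, with an overlap of at least 100 bases and without each pool, and no p could pass a threshold with 3 pools. The exception was the level of overlapped minus other coding genes, which was 0.85 among coding spans over 30000 bases, a split chosen after seeing the data; the cause was not tested. The rank correlation over pairs lay between -0.022 and 0.0085 without single pools, and its sign turned without pool 3; the cause was not tested. The count of lncRNAs that differed 2-fold was 178 at a mean of 1 or more and 4 at 3-fold, and between 6 and 16 without single pools. A ratio over 2 pools cannot exceed that over 3, so a fall in the count without a pool is partly built in. The lncRNAs with a circRNA numbered 22 when a junction had to be found in all 3 libraries. Shares of all genes at these other settings are not given here, so these counts describe the settings alone. No paired analysis was possible because the study has 1 group, so no block of replicate numbers between groups could be fitted, and the comparisons of classes already set values of the same library against each other. Depth limits the low end, since 706 of the 1136 lncRNAs had at least 10 recovered fragments in every library and the others could not be shown to.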
